A study of Mus musculus with 20 samples.

Results

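Transgene-expressing cells sorted from the basal gate of mutant mammary glands were compared with Sca1-positive luminal cells of control glands, gene by gene, on mouse expression arrays. The 2 groups were chosen by their sample titles and make up 6 of the 20 arrays of the series. GFP-positive basal cells of K8-creERT2/PIK3CA H1047R mice gave 3 arrays, and GFP-negative Sca1-positive luminal cells of K8-creERT2 control mice gave 3 arrays. All mice carried the keratin 8-driven, tamoxifen-inducible Cre, had a mixed FVB/CD-1 background and were sampled 4 weeks after tamoxifen, a treatment that the labels also give for the controls. Each array held RNA of 2000 sorted CD45-negative cells from glands of 2 to 3 mice pooled per genotype in 1 of 3 sortings. The basal gate was CD24 low and Sca1 negative, and the luminal gate was CD24 high and Sca1 positive. In the mutants GFP marks cells that express PIK3CA H1047R, an activated form of the catalytic subunit of PI3K. The comparison therefore joins a difference in gate, in genotype and in GFP sorting, which cannot be told apart within it. Values of control basal cells (3 arrays) and of GFP-positive Sca1-positive luminal cells of the mutants (2 arrays) are set beside it.

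The mammary epithelium has an inner luminal layer and an outer basal layer of contractile myoepithelial cells. Part of the luminal layer senses hormones. These cells express the receptors for estrogen, progesterone and prolactin, depend on factors such as FOXA1 and GATA3, and pass the hormonal signal to their neighbours through secreted proteins such as WNT4 and RANKL. Sca1 and prominin-1 are surface markers of hormone-sensing luminal cells in the mouse. The Cre in these mice is driven by the promoter of keratin 8, a luminal keratin. The comparison asks which hormone-sensing genes were absent from, and which were kept in, the marked cells of the basal gate.

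Values are log2 expression levels as deposited, and a difference is the mean of GFP-positive basal cells minus the mean of control Sca1-positive luminal cells. The limma test covered 19937 genes, and those with an adjusted p (Benjamini-Hochberg) under 0.05 are the called genes. Array medians over all probe sets lay between 3.66 and 3.80. Replicate 2 of GFP-positive basal cells and replicate 2 of control Sca1-positive luminal cells had standard deviations over probe sets of 1.71 and 1.72, below the range of 1.78 to 1.88 on the other 18 arrays. Correlations across genes between arrays ran from 0.964 to 0.974 within GFP-positive basal cells, from 0.969 to 0.977 within control Sca1-positive luminal cells and from 0.881 to 0.901 between the groups. To mark a level at which transcripts were not told from background, the 95th percentile of 1027 olfactory receptor genes was used. It was 3.60 in GFP-positive basal cells and 3.63 in control Sca1-positive luminal cells, and genes at or under it are called at background level. For a called gene with 1 group at background level the measured difference stands as it is, and the fold is a lower bound, with each array of that group set to at least the background level. Of all genes, 1138 rose (5.71%) and 1230 fell (6.17%) in GFP-positive basal cells, 11.9% in all. Without replicate 2 of both groups 920 rose and 870 fell. The median difference over all genes was -0.042.

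Genes that mark the gates were checked first. Trp63, which encodes the basal master regulator p63, had levels of 9.39, 9.15 and 8.97 in GFP-positive basal cells, against 4.31, 4.64 and 4.34 in control Sca1-positive luminal cells. Cd24a, which encodes the sort marker CD24, averaged 10.25 ± 0.25 in GFP-positive basal cells and 10.93 ± 0.05 in control Sca1-positive luminal cells (SD, n = 3 each). Since CD24 was used to gate the cells, this difference is a check and not a finding. Ptprc, which encodes CD45, averaged 3.62 ± 0.18 in GFP-positive basal cells and 3.66 ± 0.33 in control Sca1-positive luminal cells (SD, n = 3 each), close to the background level. Ly6a, the gene of Sca1, was not analysed here. In such sorted pools, fewer cells of a type and less RNA per cell cannot be told apart.

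Most hormone-sensing genes were low in the marked basal-gate cells, at or near the level of control basal cells. Of 21 listed genes 17 were measured, and the others were not analysed here. Among the 17, 13 fell, 0 rose and 4 were not called, with a median difference of -2.59 (also -2.59 with genes at background level set to their bound), against 6.17% of all genes that fell. All 17 were above background level in control Sca1-positive luminal cells. High levels were not particular to that gate among luminal cells. In control Sca1-negative luminal cells each of the 17 had a lower mean, but often by little. Pgr averaged 7.59 there against 8.59 in control Sca1-positive luminal cells, Foxa1 7.63 against 7.94 and Cited1 9.86 against 10.44. These differences between the luminal gates were not tested. In GFP-positive basal cells Pgr, Tph1, Prom1 and Greb1 were at background level, 4 of 17, against 7.23% of the 11668 genes above background level in control Sca1-positive luminal cells. Pgr, Tph1 and Prom1 were also called lower, as were 1.41% of those genes. In 14 of the 17 every GFP-positive basal array lay under every control Sca1-positive luminal array, as in 14.8% of all genes (25.0% of all genes had no overlap in either direction, 10.2% with all GFP-positive basal arrays higher). Control basal cells had 10 of the 17 called lower and 0 higher against the same luminal arrays, where 6.32% of all genes were lower, 5.94% higher and 12.3% called in all.

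**Figure D1:**
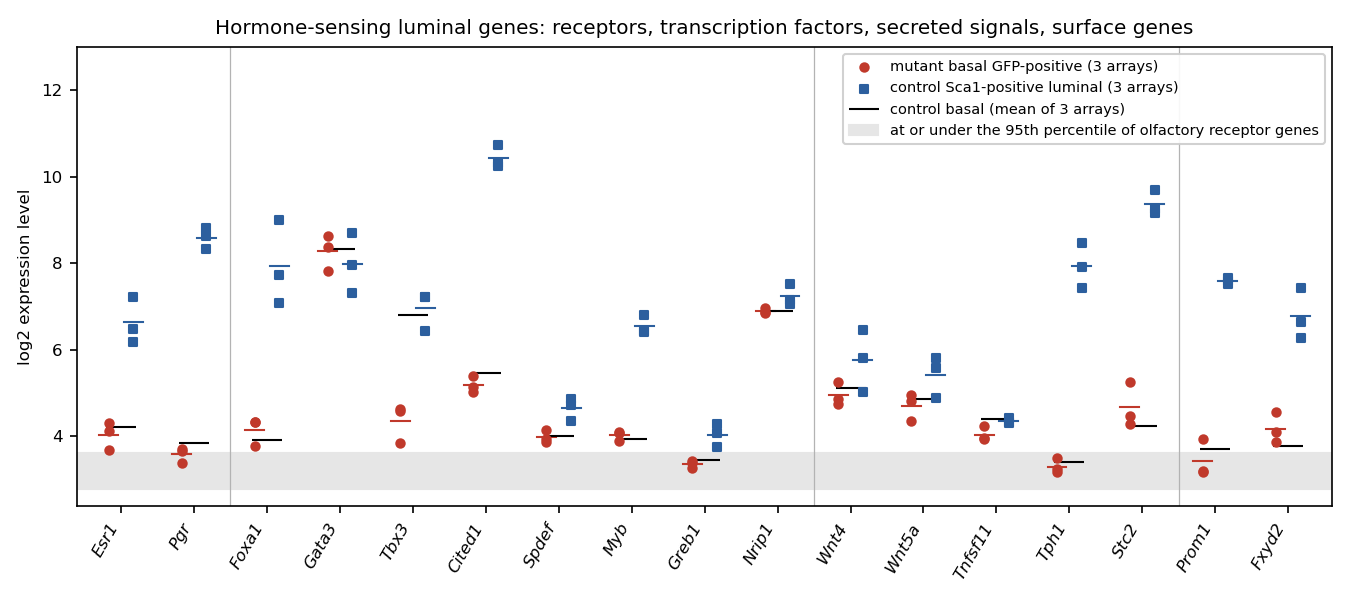
Log2 expression level of the 17 measured hormone-sensing genes, with a point for each array of GFP-positive basal cells (red circles, left) and control Sca1-positive luminal cells (blue squares, right), coloured lines for group means and black lines for the control basal mean. The shaded band holds levels at or under 3.60, the 95th percentile of olfactory receptor genes in GFP-positive basal cells; Gata3 is the member with overlapping points at a high level in both groups.

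The steroid receptor genes were both lower in the marked basal-gate cells. Pgr, which encodes the progesterone receptor, had levels of 3.65, 3.37 and 3.70 in GFP-positive basal cells, against 8.32, 8.82 and 8.63 in control Sca1-positive luminal cells. The groups did not overlap, and Pgr was at least 30.7-fold lower in GFP-positive basal cells (measured difference -5.01, SE 0.30, adjusted p = 9.74e-09), where it was at background level. Esr1, which encodes estrogen receptor alpha, had levels of 3.69, 4.31 and 4.11 in GFP-positive basal cells, against 6.49, 6.18 and 7.22 in control Sca1-positive luminal cells. It fell by 2.59 on the log2 scale (SE 0.26, adjusted p = 3.66e-06), and its mean in GFP-positive basal cells, 4.04, stayed above the background level. Neither receptor gene was called between GFP-positive and control basal cells, where the difference was -0.26 for Pgr (adjusted p = 0.759) and -0.17 for Esr1 (adjusted p = 0.834).

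Of 8 transcriptional regulators of the hormone-sensing lineage 5 fell and 3 were not called, where 6.17% of all genes fell. Their differences ran from -5.26 to 0.29. Cited1, a coactivator of the estrogen receptor, had levels of 5.02, 5.38 and 5.13 in GFP-positive basal cells, against 10.74, 10.25 and 10.31 in control Sca1-positive luminal cells. It fell by 5.26 (SE 0.37, adjusted p = 6.71e-08) and was above background level in both groups. Foxa1, the pioneer factor that opens chromatin for the estrogen receptor, had levels of 4.32, 3.77 and 4.32 in GFP-positive basal cells, against 9.0, 7.09 and 7.73 in control Sca1-positive luminal cells. It fell by 3.80 (SE 0.38, adjusted p = 2.68e-06). Myb fell by 2.53 (SE 0.23, adjusted p = 1.14e-06) and the ETS factor gene Spdef by 0.67 (SE 0.12, adjusted p = 0.000922). Spdef was low throughout, at 3.97 ± 0.15 in GFP-positive basal cells and 4.64 ± 0.26 in control Sca1-positive luminal cells (SD, n = 3 each).

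The 3 regulators that were not called were Gata3, Nrip1 and Greb1. Gata3, a factor needed for luminal differentiation, had levels of 8.63, 7.83 and 8.37 in GFP-positive basal cells, against 7.96, 7.31 and 8.70 in control Sca1-positive luminal cells. The groups overlapped, and the difference was 0.29 with a 95% interval of -0.37 to 0.95 (adjusted p = 0.659). Its mean in control basal cells was 8.33 ± 0.28 (SD, n = 3), so its level was also high in basal cells of control mice. Nrip1, a nuclear receptor corepressor, averaged 6.89 ± 0.06 in GFP-positive basal cells and 7.24 ± 0.25 in control Sca1-positive luminal cells (SD, n = 3 each). The groups did not overlap, and its difference of -0.36 was not called, with a 95% interval of -0.62 to -0.09 (adjusted p = 0.0846). The estrogen-induced gene Greb1 was low in both groups, at 3.36 ± 0.08 in GFP-positive basal cells and 4.03 ± 0.27 in control Sca1-positive luminal cells (SD, n = 3 each), and was not called at -0.67 (95% interval -1.15 to -0.20, adjusted p = 0.0669). This is the size of the called difference of Spdef. Without control Sca1-positive luminal replicate 2, Nrip1 (-0.45, adjusted p = 0.0404) and Greb1 (-0.82, adjusted p = 0.0464) passed the threshold. Greb1 passed under 5 of the 14 alternatives. The others were the 6 arrays fitted alone, array weights, a trended robust prior and dim genes left out.

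Tbx3 was lower in the marked cells than in both control groups. This T-box repressor, which is needed for mammary development, had levels of 4.57, 3.83 and 4.64 in GFP-positive basal cells, against 7.22, 6.42 and 7.22 in control Sca1-positive luminal cells. It fell by 2.61 (SE 0.29, adjusted p = 1.04e-05). In control basal cells it averaged 6.80 ± 0.21 (SD, n = 3), and control basal and control Sca1-positive luminal cells differed by -0.16 (adjusted p = 0.841). GFP-positive basal cells were below control basal cells by 2.45 on the log2 scale (difference -2.45, adjusted p = 8.78e-05), and below mutant Sca1-positive luminal cells as well (difference -2.03, adjusted p = 0.000508). GFP-positive Sca1-negative luminal cells of the mutants averaged 4.87 ± 0.28 and their controls 6.44 ± 0.44 (SD, n = 3 each), a difference that was not tested. Between GFP-positive and control basal cells 0 of the 17 hormone-sensing genes rose and 2 fell, Tbx3 and Tnfsf11, where 2.32% of all genes rose and 1.91% fell (4.23% in all). That comparison shares the GFP-positive arrays with the main one.

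Promoter sequences are shown for 3 of these genes, since Pgr and Foxa1 fell and Gata3 was not called. They are the 250 bases before the RefSeq start (GRCm38.p6), 5′ to 3′ on the gene's strand. Capitals mark matches on either strand to GGTCA, the half-site of the estrogen response element, or to the forkhead motif TGTTTAC, and the stretches do not overlap.
Pgr, chr9:8899583-8899832, plus strand: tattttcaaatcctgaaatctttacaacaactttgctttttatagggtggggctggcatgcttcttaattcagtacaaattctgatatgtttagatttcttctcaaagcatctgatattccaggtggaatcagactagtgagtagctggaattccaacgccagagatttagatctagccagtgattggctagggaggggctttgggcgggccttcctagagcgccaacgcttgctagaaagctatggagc
Foxa1, chr12:57546112-57546361, minus strand: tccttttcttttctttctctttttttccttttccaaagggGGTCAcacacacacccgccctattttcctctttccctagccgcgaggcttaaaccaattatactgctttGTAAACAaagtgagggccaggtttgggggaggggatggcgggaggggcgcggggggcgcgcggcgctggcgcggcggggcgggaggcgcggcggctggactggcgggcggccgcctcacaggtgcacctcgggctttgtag
Gata3, chr2:9878601-9878850, minus strand: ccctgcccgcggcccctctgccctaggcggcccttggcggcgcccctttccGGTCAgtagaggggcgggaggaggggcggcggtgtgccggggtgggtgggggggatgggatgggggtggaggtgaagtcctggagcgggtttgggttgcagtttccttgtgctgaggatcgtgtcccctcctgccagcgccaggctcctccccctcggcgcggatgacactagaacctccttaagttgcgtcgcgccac
The Pgr window held no match, the Foxa1 window held 1 of each, and the Gata3 window held 1 half-site. The half-site was found in 9 of the 21 windows of 14 measured members and in 35.2% of all 32851 windows. The count of all windows leaves out 1 chromosome and any window under 250 bases. The forkhead motif was found in 1 of the 21 windows, that of Foxa1, and in 3.17% of all windows. The full palindromic estrogen response element was in 0 of the 21 and in 0.064% of all windows, and the GATA motif AGATAA was in 0 of the 21 and in 9.99% of all. A match is a description of the letters and not a bound site. Windows were not in the table for Tbx3, Wnt5a and Fxyd2.

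Genes of secreted signals included steep drops and small ones. Stc2, which encodes the glycoprotein hormone stanniocalcin 2, had levels of 4.28, 4.46 and 5.26 in GFP-positive basal cells, against 9.70, 9.15 and 9.25 in control Sca1-positive luminal cells. It fell by 4.70 (SE 0.25, adjusted p = 1.84e-09). Tph1, which makes serotonin outside the brain, had levels of 3.23, 3.49 and 3.16 in GFP-positive basal cells, against 7.41, 8.45 and 7.90 in control Sca1-positive luminal cells. All 3 marked arrays were at background level, and Tph1 was at least 20.1-fold lower in GFP-positive basal cells (measured difference -4.63, SE 0.25, adjusted p = 2.13e-09).

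The paracrine ligands differed much less. Their levels in control Sca1-positive luminal cells were lower than those of Stc2 and Tph1. In GFP-positive basal cells the means of Wnt4, Wnt5a and Tnfsf11 were above the background level of 3.60. Whether the lower luminal levels limited the drops was not tested. Wnt4, a progesterone-induced ligand, averaged 4.95 ± 0.26 in GFP-positive basal cells and 5.76 ± 0.71 in control Sca1-positive luminal cells (SD, n = 3 each). The groups overlapped, and the call at -0.81 (adjusted p = 0.0459) was lost without GFP-positive basal replicate 1 (adjusted p = 0.126) or 2 (adjusted p = 0.147), or control Sca1-positive luminal replicate 1 (-0.46, adjusted p = 0.204) or 3 (adjusted p = 0.107). Tnfsf11, which encodes RANKL, averaged 4.04 ± 0.16 in GFP-positive basal cells and 4.34 ± 0.06 in control Sca1-positive luminal cells (SD, n = 3 each). Its call at -0.31 (adjusted p = 0.0351) was lost without GFP-positive basal replicate 1 (adjusted p = 0.146) or 3 (adjusted p = 0.117). It was also lost without control Sca1-positive luminal replicate 1 (adjusted p = 0.0685), 2 (adjusted p = 0.106) or 3 (adjusted p = 0.0591). Wnt5a averaged 4.70 ± 0.31 in GFP-positive basal cells and 5.42 ± 0.48 in control Sca1-positive luminal cells (SD, n = 3 each). Its difference of -0.72 was not called (adjusted p = 0.0928) and passed without control Sca1-positive luminal replicate 2 (-0.99, adjusted p = 0.0209). It also passed with array weights and without replicate 2 of both groups.

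Both measured surface genes fell. Prom1, which encodes prominin-1, had levels of 3.19, 3.92 and 3.17 in GFP-positive basal cells, against 7.67, 7.58 and 7.51 in control Sca1-positive luminal cells, at least 14.7-fold lower (measured difference -4.16, SE 0.28, adjusted p = 3.12e-08). Fxyd2, a regulatory subunit of the sodium-potassium pump, had levels of 4.55, 4.10 and 3.87 in GFP-positive basal cells, against 7.43, 6.28 and 6.63 in control Sca1-positive luminal cells, a difference of -2.60 (SE 0.26, adjusted p = 3.16e-06). Against mutant Sca1-positive luminal cells, which share the genotype and GFP sorting with the marked basal cells, 10 of the 17 hormone-sensing genes were lower and 0 higher, with a median difference of -2.03 (6.16% of all genes were lower there, 4.49% higher and 10.7% called in all). Pgr had a measured difference of -4.76 in that comparison (adjusted p = 8.89e-08) and Cited1 by -5.76 (adjusted p = 1.23e-07). The gap between the basal and the Sca1-positive luminal gate, in mutant GFP-positive cells minus control cells, was tested as an interaction in limma. It was called for 0 of the 17 (3 at an unadjusted p under 0.05), against 1.09% of all genes, 0.582% with a higher and 0.512% with a lower value. The 3 were Tbx3 (-1.87, adjusted p = 0.0553), Myb (1.02, adjusted p = 0.263) and Spdef (0.40, adjusted p = 0.450), so Tbx3 missed the threshold narrowly.

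**Figure D2:**
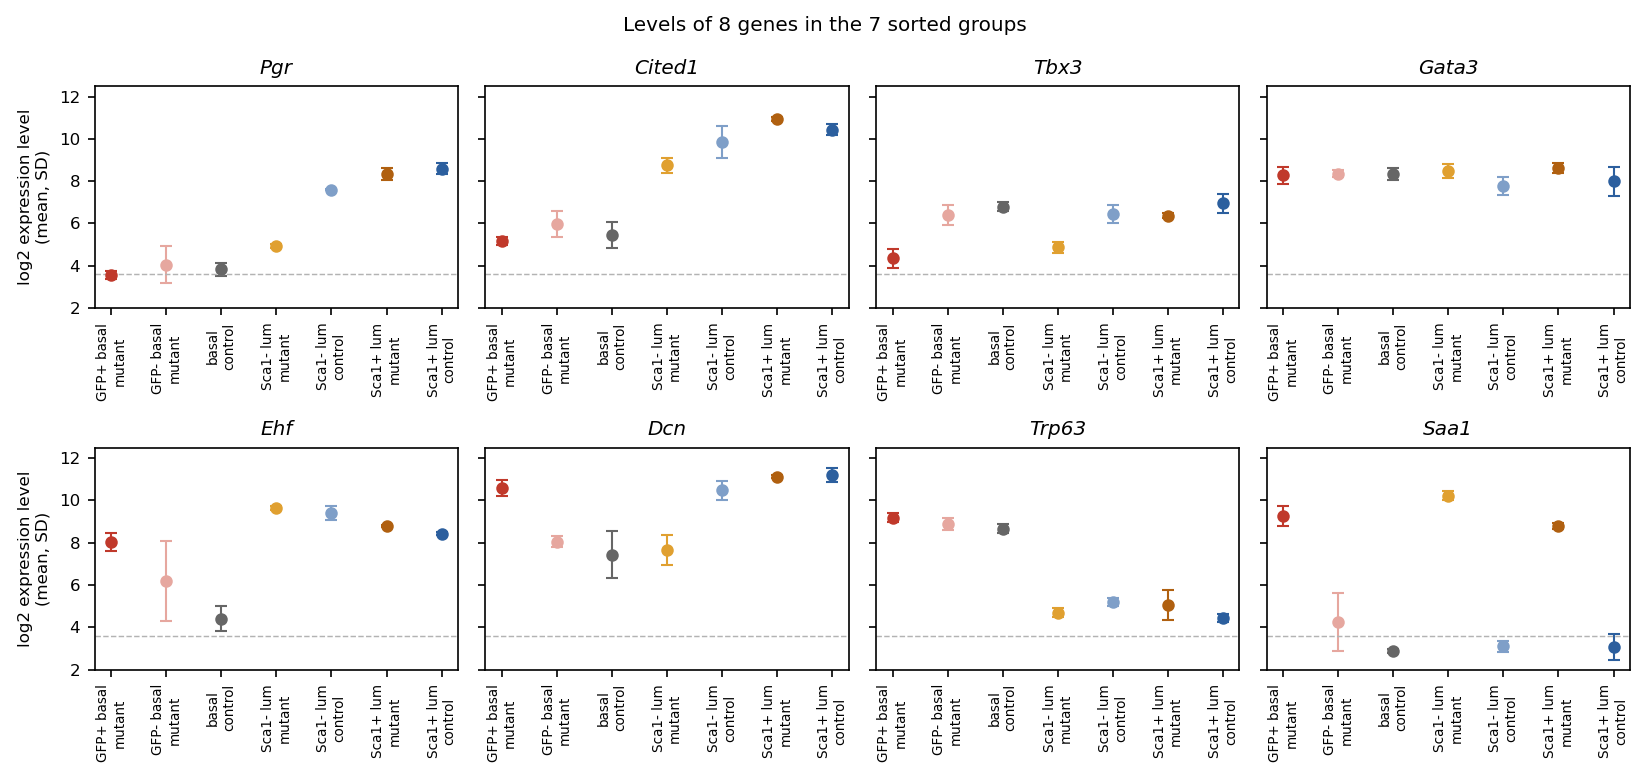
Mean log2 expression level with SD of 8 genes in the 7 sorted groups (3 arrays each, 2 for mutant Sca1-positive luminal cells); lum is luminal, plus and minus signs give GFP or Sca1 state, and the dashed line is the background level of 3.60. Pgr and Cited1 lie with the basal groups in GFP-positive basal cells, Tbx3 lies below both controls, Gata3 is high in both groups compared, and Ehf, Dcn and Saa1 lie above control basal cells.

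Genes that act downstream of the prolactin receptor and those that receive the paracrine signals were examined as the partners of hormone sensing. In the prolactin JAK-STAT list 3 of 6 members fell and 0 rose, where 6.17% of all genes fell and 5.71% rose. Jak2, the kinase bound to the prolactin receptor, averaged 5.88 ± 0.02 in GFP-positive basal cells and 7.42 ± 0.53 in control Sca1-positive luminal cells (SD, n = 3 each), a difference of -1.54 (adjusted p = 0.00233). The signal transducer gene Stat5a fell by 1.28 (adjusted p = 0.00173). Its paralog Stat5b had a difference of -0.94 (adjusted p = 0.0347), a call that was lost without GFP-positive basal replicate 1 (adjusted p = 0.0647) or 2 (adjusted p = 0.133), or control Sca1-positive luminal replicate 1 (adjusted p = 0.158) or 3 (adjusted p = 0.107). It was also lost with the replicate number as a block (adjusted p = 0.055). Of 3 measured steroid receptor coregulators, Ncoa1, Ncoa2 and Ncoa3, 0 were called (2 at an unadjusted p under 0.05), and their differences were 0.69, -0.51 and 0.095. Ncoa1 passed without GFP-positive basal replicate 1 (0.98, adjusted p = 0.0471).

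Among 9 receptors and partners of the hormone-induced signals, 5 rose and 0 fell, against 5.71% of all genes that rose. Egfr, the receptor of amphiregulin, had levels of 7.58, 7.12 and 7.50 in GFP-positive basal cells, against 4.17, 3.97 and 4.51 in control Sca1-positive luminal cells, a difference of 3.18 (SE 0.23, adjusted p = 8.58e-08). The R-spondin receptor gene Lgr4 rose by 3.24 (SE 0.36, adjusted p = 1.04e-05) and the Wnt coreceptor gene Lrp6 by 1.68 (SE 0.26, adjusted p = 0.000252). Lgr5, another R-spondin receptor, had levels of 4.60, 4.05 and 5.55 in GFP-positive basal cells, against 3.51, 3.56 and 3.46 in control Sca1-positive luminal cells, and was at least 2.15-fold higher (measured difference 1.23, SE 0.27, adjusted p = 0.00533), a call that was lost with the 6 compared arrays fitted alone (adjusted p = 0.0885). In control basal cells Lgr5 averaged 8.39 ± 0.20 (SD, n = 3), so the marked cells held a level between the controls and nearer to the luminal one. Tnfrsf11a, which encodes the RANKL receptor RANK, was not called at 0.33 (95% interval -0.16 to 0.82, adjusted p = 0.442).

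Luminal genes that are not tied to hormone sensing were mostly lower but stayed well above background. Of 19 shared luminal genes 14 fell, 0 rose and 5 were not called, where 6.17% of all genes fell and 5.71% rose. Their median difference was -1.55, and all 19 were above background level in both groups. Cldn4, a tight-junction claudin, had levels of 7.84, 5.81 and 6.98 in GFP-positive basal cells, against 11.02, 11.14 and 11.07 in control Sca1-positive luminal cells, a difference of -4.20 (SE 0.69, adjusted p = 0.000492). The vesicle-traffic gene Rab25, the keratin gene Krt19 and the protease inhibitor gene Spint1 fell, with differences of -2.95, -2.57 and -2.50. Krt8, whose promoter drives the Cre, had levels of 11.17, 10.54 and 10.86 in GFP-positive basal cells, against 11.93, 11.93 and 11.80 in control Sca1-positive luminal cells. Its difference was -1.03 (adjusted p = 0.00524), and -0.85 (adjusted p = 0.077) without replicate 2 of both groups. Its partner keratin gene Krt18 fell by 1.14 (adjusted p = 0.00154, and 0.0502 with the 6 arrays fitted alone).

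For 4 genes of different lists, singled out after their values were seen, GFP-positive basal cells were above control basal cells and no difference from control Sca1-positive luminal cells was called. Ehf is from the shared luminal list, Cd14 from the luminal progenitor list, Hp from the acute-phase list and Dcn from the fibroblast list. The 4 are examples, and Elf5 of the luminal progenitor list met the same conditions. Ehf, an epithelial ETS factor, had levels of 8.36, 8.23 and 7.54 in GFP-positive basal cells, against 8.52, 8.40 and 8.35 in control Sca1-positive luminal cells. The difference of -0.39 was not called (95% interval -1.68 to 0.91, adjusted p = 0.783). Control basal cells had 4.42 ± 0.58 (SD, n = 3), and GFP-positive basal cells were above them by 3.62 (adjusted p = 0.00217). Dcn, the proteoglycan decorin, had levels of 10.84, 10.15 and 10.75 in GFP-positive basal cells, against 11.20, 10.85 and 11.55 in control Sca1-positive luminal cells, with a difference of -0.62 (95% interval -1.57 to 0.33, adjusted p = 0.464). It was above control basal cells by 3.15 (adjusted p = 0.000477), as was Col1a2 of the same fibroblast list by 0.88 (adjusted p = 0.0326), while the other 5 fibroblast markers were not called there. The part of fibroblasts in these values was not tested. Hp, which encodes the acute-phase protein haptoglobin, averaged 8.23 ± 0.88 in GFP-positive basal cells and 7.55 ± 0.47 in control Sca1-positive luminal cells (SD, n = 3 each), and it was above control basal cells by 3.85 (adjusted p = 0.000706). Cd14, a coreceptor for lipopolysaccharide, averaged 7.77 ± 0.86 in GFP-positive basal cells and 7.59 ± 0.31 in control Sca1-positive luminal cells (SD, n = 3 each), and was above control basal cells by 2.02 (adjusted p = 0.00292). These side comparisons share the GFP-positive arrays with the main one.

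Part of the milk genes were higher in the marked basal-gate cells. Of 9 milk genes 4 rose and 0 fell, where 5.71% of all genes rose and 6.17% fell. Against mutant Sca1-positive luminal cells 1 of the 9, Xdh, was higher and 0 were lower, with a median difference of -0.011. There 4.49% of all genes were higher and 6.16% lower. Csn2, which encodes beta-casein, had levels between 10.92 and 11.13 in GFP-positive basal cells, against 5.73, 8.60 and 4.49 in control Sca1-positive luminal cells, a difference of 4.74 (SE 1.09, adjusted p = 0.0079). The 3 marked arrays were close together while the luminal ones were spread over several log2 units. Csn1s1 rose by 3.63 (adjusted p = 0.0033), and Xdh, needed for milk fat secretion, by 2.32 (adjusted p = 4.39e-05). Wap had levels of 8.32, 5.42 and 6.01 in GFP-positive basal cells, against 3.64, 3.98 and 4.37 in control Sca1-positive luminal cells, and its difference of 2.59 (adjusted p = 0.0093) was 1.72 without GFP-positive basal replicate 1 and was not called with the 6 arrays fitted alone (adjusted p = 0.076). In the luminal progenitor list 2 of 8 rose, Mfge8 by 2.23 (adjusted p = 4e-06) and the lipocalin gene Lcn2 by 2.08 (adjusted p = 7.99e-07). Against control basal cells Mfge8 was higher by 2.30 (adjusted p = 1.37e-05), while Lcn2 was not called (difference 0.086, adjusted p = 0.886). Ltf, which encodes lactoferrin, fell by 1.47 (adjusted p = 0.004), a call lost without replicate 2 of both groups (-1.20, adjusted p = 0.0648). Elf5, the alveolar ETS factor, had levels of 7.01, 4.83 and 5.36 in GFP-positive basal cells, against 4.94, 4.96 and 4.48 in control Sca1-positive luminal cells, and was not called at 0.94 (95% interval 0.02 to 1.86, adjusted p = 0.202). It was above control basal cells by 1.84 (adjusted p = 0.0227).

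Several luminal and secretory genes were lowest in replicate 2 of the marked cells, the array with a narrow spread of values. Muc1, an apical mucin, had levels of 6.80, 3.99 and 6.26 in GFP-positive basal cells, against 5.52, 4.26 and 4.49 in control Sca1-positive luminal cells. It was not called at 0.92 (adjusted p = 0.366) and passed without GFP-positive basal replicate 2 (1.77, adjusted p = 0.0123). Saa3 went the same way, at 0.98 (adjusted p = 0.241) with that array and 1.59 (adjusted p = 0.0287) without it. Whether this array held another mix of cells was not tested.

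**Figure D3:**
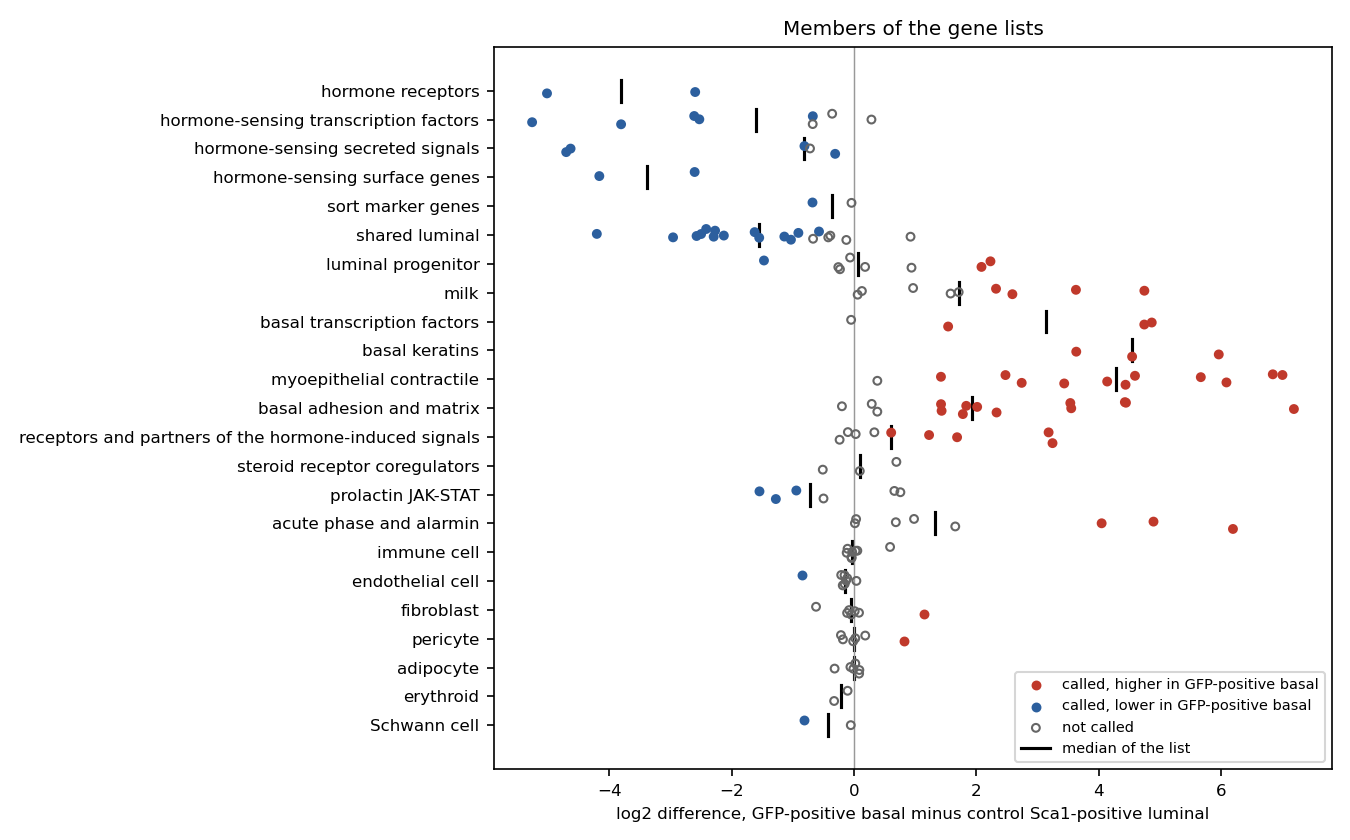
Log2 difference of GFP-positive basal minus control Sca1-positive luminal cells for each measured member of 23 gene lists, with filled points for called genes (red higher, blue lower in GFP-positive basal cells), open points for genes not called and a black bar for the median. Hormone-sensing lists lie to the left, with medians from -3.80 to -0.81, and basal keratin and contractile lists to the right, with medians of 4.54 and 4.29.

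The basal program was present in the marked cells. Of 4 basal transcription factors 3 rose, against 5.71% of all genes. Snai2 rose by 4.86 (SE 0.32, adjusted p = 2.35e-08), Trp63 by 4.74 (SE 0.22, adjusted p = 5.46e-10) and Id4 by 1.54 (SE 0.20, adjusted p = 3.95e-05). Myocd, the smooth muscle coactivator, was at background level in both groups. Snai2 had levels of 9.20, 9.03 and 9.21 in GFP-positive basal cells, against 3.58, 4.19 and 5.09 in control Sca1-positive luminal cells, and was also above control basal cells (difference 1.52, adjusted p = 0.0102). All 3 basal keratin genes rose. Krt5 had levels of 10.84, 10.65 and 10.86 in GFP-positive basal cells, against 4.75, 4.72 and 5.01 in control Sca1-positive luminal cells, a difference of 5.96 (SE 0.25, adjusted p = 2.1e-10). Krt17 rose by 4.54 and Krt14 by 3.63. None of the 3 was called between GFP-positive and control basal cells, where 4.23% of all genes were called.

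Contractile genes rose in 11 of 12 cases, with a median difference of 4.29, where 5.71% of all genes rose. Myl9, a myosin light chain, had levels of 11.44, 10.78 and 11.10 in GFP-positive basal cells, against 4.30, 4.02 and 4.01 in control Sca1-positive luminal cells, and rose by 7.0 (SE 0.26, adjusted p = 7.13e-11). Smooth muscle actin, Acta2, rose by 6.84 (SE 0.32, adjusted p = 5.46e-10) and calponin, Cnn1, by 6.08 (SE 0.36, adjusted p = 7.61e-09). Lmod1, which encodes the actin nucleator leiomodin 1, was the exception, with levels of 4.72, 4.01 and 4.32 in GFP-positive basal cells, against 3.77, 4.08 and 4.05 in control Sca1-positive luminal cells (difference 0.38, adjusted p = 0.308). Control basal cells had 6.20 ± 0.41 (SD, n = 3), above GFP-positive basal cells (difference of GFP-positive minus control -1.85, adjusted p = 5.58e-05). The oxytocin receptor gene Oxtr rose by 2.47 against control Sca1-positive luminal cells (adjusted p = 6.83e-05) and was below control basal cells (difference -1.84, adjusted p = 0.0039). Of the 12, 4 were lower in GFP-positive than in control basal cells, and 0 were higher, where 1.91% of all genes were lower and 2.32% higher.

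Basal adhesion and matrix genes rose in 11 of 14 cases, where 5.71% of all genes rose. Sparc, a matricellular protein, had levels of 11.50, 11.38 and 11.59 in GFP-positive basal cells, against 3.91, 4.71 and 4.29 in control Sca1-positive luminal cells, and rose by 7.19 (SE 0.38, adjusted p = 2.34e-09). Vimentin, Vim, rose by 4.44 (SE 0.21, adjusted p = 6.76e-10), and the laminin chain gene Lama3 and the hemidesmosome collagen gene Col17a1 rose by 4.42 and 3.55. The integrin genes Itgb1 and Itgb4 and the caveolin gene Cav1 were not called, at 0.38, -0.20 and 0.29.

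Of 8 acute-phase genes 3 rose and 0 fell in the marked cells, where 5.71% of all genes rose and 6.17% fell. Saa1, a serum amyloid gene, had levels of 9.78, 8.88 and 9.13 in GFP-positive basal cells, against 2.59, 3.74 and 2.89 in control Sca1-positive luminal cells, and was at least 48.4-fold higher (measured difference 6.19, SE 0.47, adjusted p = 1.3e-07). Saa2 rose by 4.89 and the neutrophil-type calcium-binding protein gene S100a8 by 4.05, while its partner gene S100a9 averaged 3.72 ± 0.50 in GFP-positive basal cells and 3.71 ± 0.23 in control Sca1-positive luminal cells (SD, n = 3 each). Against mutant Sca1-positive luminal cells, 0 of the 8 were called (1 at an unadjusted p under 0.05), where 10.7% of all genes were called.

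Outside the lists, 14 genes with the greatest measured rises were taken, leaving out symbols of the form Gm plus a number or ending in Rik. Igfbp3, a carrier of insulin-like growth factors, had levels of 11.53, 11.63 and 11.57 in GFP-positive basal cells, against 4.20, 3.89 and 4.10 in control Sca1-positive luminal cells, and rose by 7.51 (SE 0.33, adjusted p = 2.65e-10). Vcan, Emb and Scrg1 were at background level in control Sca1-positive luminal cells. The proteoglycan gene Vcan was at least 140.1-fold higher and Emb at least 47.7-fold higher in GFP-positive basal cells. The proteoglycan gene Bgn rose by 6.55 and the matricellular genes Postn and Ccn2 by 6.86 and 6.43. The metalloprotease inhibitor gene Timp3 rose by 6.39 and the metalloprotease gene Adamts1 by 6.02. Ecrg4, Ppic, the chemokine gene Cxcl14, Chil1 and the Wnt inhibitor gene Sfrp1 rose by 5.47 to 5.88. Scrg1 had levels of 9.24, 8.20 and 8.17 in GFP-positive basal cells, against 2.88, 3.15 and 2.92 in control Sca1-positive luminal cells, and was at least 29.97-fold higher (measured difference 5.55, SE 0.29, adjusted p = 1.84e-09). It was at 3.04 ± 0.08 (SD, n = 3) in control basal cells too, so its level in the marked cells stood above both controls. Igfbp3, Vcan, Bgn, Emb, Ppic and Sfrp1 were also called above control basal cells, by 1.17 (Bgn, adjusted p = 0.0466) to 3.44 (Vcan). The rest of the 14 were not called there. Of all genes 2.32% were higher in that comparison, and the 14 were chosen on the same GFP-positive arrays.

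The 14 genes with the greatest measured drops were taken by the same rule. They included AW112010, Krt4, Cxcl15 and Tlcd4, which were at background level in GFP-positive basal cells, so that their order is not settled. AW112010 had levels of 3.36, 3.58 and 3.29 in GFP-positive basal cells, all at background level, against 10.64, 10.20 and 10.23 in control Sca1-positive luminal cells, and was at least 108.3-fold lower in GFP-positive basal cells (measured difference -6.95, SE 0.56, adjusted p = 2.36e-07). Krt4, a keratin of stratified mucosa, was at least 90.2-fold lower (measured difference -6.58, SE 0.19, adjusted p = 4.23e-12). The secreted peroxidase gene Gpx3 fell by 6.57 and the WAP-domain gene Wfdc2 fell by 6.13. Cxcl15, a CXC chemokine, had levels of 2.85, 2.76 and 2.68 in GFP-positive basal cells, against 7.51, 9.30 and 9.37 in control Sca1-positive luminal cells, and was at least 35.0-fold lower (measured difference -5.96, SE 0.59, adjusted p = 2.74e-06). Fam25c, the tetraspanin gene Tspan13, Ly6d of the Sca1 gene family, the serine protease gene Tmprss2, the cornified envelope gene Sprr1a, Tlcd4 and Gipc2 also fell, with measured differences from -5.84 for Fam25c to -5.10 for Gipc2. The iodide transporter gene Slc5a5 fell by 4.94 and the fibrinogen chain gene Fgb by 4.70. Between GFP-positive and control basal cells, 0 of these 14 genes were called (3 at an unadjusted p under 0.05), where 4.23% of all genes were called, and the 14 were chosen on the same GFP-positive arrays.

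**Figure D4:**
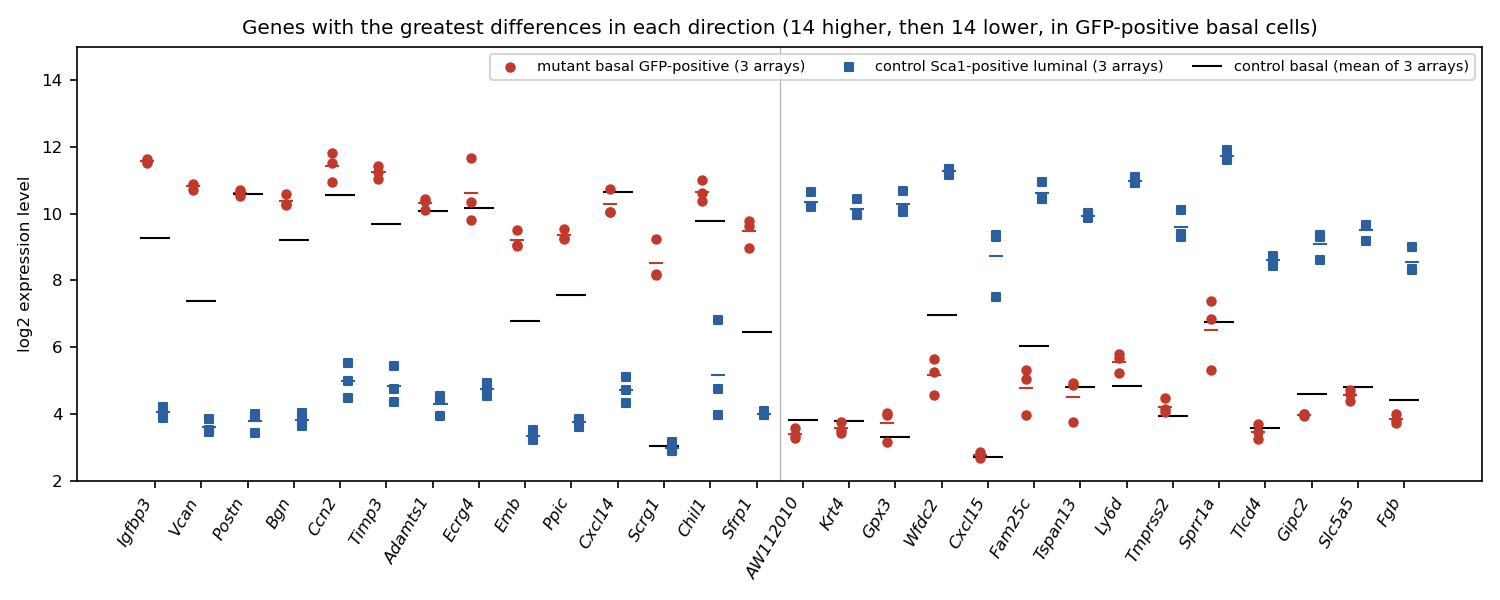
Log2 expression level on each array for the 14 genes with the greatest rise (left) and the 14 with the greatest drop (right) in GFP-positive basal cells (red circles) against control Sca1-positive luminal cells (blue squares), with black lines for the control basal mean. Scrg1, Vcan, Igfbp3, Bgn, Emb, Ppic and Sfrp1 were called above control basal cells. None of the genes on the right was called between GFP-positive and control basal cells. Members of the gene lists and symbols of the form Gm plus a number or ending in Rik were left out.

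Markers of other cell types gave few calls. Of all genes 11.9% were called, so low counts in lists this small say little about these markers. Immune markers had 0 of 8 called (0 at an unadjusted p under 0.05), and the mean of the list per array lay between 3.59 and 3.65 in GFP-positive basal cells and between 3.46 and 3.78 in control Sca1-positive luminal cells. Of 8 endothelial markers Vwf fell by 0.85, and the list mean lay between 3.34 and 3.47 in GFP-positive basal cells and between 3.57 and 3.68 in control Sca1-positive luminal cells. Of 7 fibroblast markers Col1a2 rose by 1.14 (adjusted p = 0.00214, and 0.073 with the 6 arrays fitted alone), while Col1a1 and Col3a1 differed by 0.012 and -0.11. The fibroblast list mean lay between 4.65 and 4.87 in GFP-positive basal cells and between 4.61 and 4.73 in control Sca1-positive luminal cells, with Dcn as its highest member. Of 6 pericyte markers Cspg4 had a measured difference of 0.82 (0.52 without GFP-positive basal replicate 1, and adjusted p = 0.129 with the 6 arrays fitted alone), while Rgs5 was at background level in both groups. Adipocyte and erythroid markers had 0 of 6 and 0 of 2 called (1 each at an unadjusted p under 0.05), and of 2 Schwann cell markers Mbp fell by 0.81. The part of such cells in the results was not tested.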

How the data were processed

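The deposited table holds log2 levels per probe set for 20 arrays, running from 1.98 to 13.07 with none missing. The unit was read from the values. Per the submitters' processing notes the affy package was used, with no version or role. The normalization method, filters and genome build are not given in the sources used here. The log2 values were used as deposited, with replicates kept apart, and the number of arrays limits their precision.

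Of 34760 probe sets, 21640 had 1 gene symbol in the platform table, 1321 had several and 11799 were not listed. RefSeq (GRCm38.p6, names only) matched 21553 by gene number and changed 0 symbols. The brightest probe set was kept for the 954 genes with several, leaving 19937 genes. A linear model with 7 group means over all 20 arrays was fitted (lmFit and eBayes of limma 3.58.1, R 4.3.3), so the spread within groups comes from all 7 groups, 13 residual degrees of freedom. It is the spread between pools of mice, and gates of a genotype can come from the same pools. The fit was tested on simulated data.

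The groups compared share replicate numbers. Deviations from group means correlated with r = 0.102, 0.222 and 0.094 for numbers 1, 2 and 3, so the numbers were not taken to pair the samples. The gene lists and members were chosen with earlier results of these data known. Named genes were the hormone-sensing members, up to 4 members with the greatest difference of each other list, and the 14 highest and 14 lowest called genes without overlap outside the lists. Symbols of the form Gm plus a number, or ending in Rik, were left out of that ranking. Further list members were named after their values were seen. Promoter sequences are from RefSeq, GRCm38.p6. Alternatives were a fit of the 6 arrays alone, a replicate block, array weights, quantile normalization, a trended robust prior, mean probe sets, dim genes left out, and arrays left out.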

Additional observations from a re-analysis of the deposited data

Results flagged for a closer look

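For 11 named genes the difference between the basal and the Sca1-positive luminal gate itself differed between mutant GFP-positive cells and control cells, by an interaction in the same limma fit in which 1.09% of all genes were called (0.582% higher and 0.512% lower). The mutant side rests on 2 Sca1-positive luminal arrays. The difference of differences, mutant minus control, was 5.40 for Scrg1 (adjusted p = 6.79e-06), where the gap between gates was 5.47 in mutants and 0.062 in controls. It was 3.23 for Dcn (adjusted p = 0.026), with gaps of -0.54 in mutants and -3.77 in controls. For Lgr5 it was -3.68 (adjusted p = 0.000154), with gaps of 1.21 in mutants and 4.89 in controls. For Chil1 it was -4.14 (adjusted p = 0.0426), with gaps of 0.46 in mutants and 4.60 in controls. Sfrp1 (3.09, adjusted p = 9.96e-05), Vcan (2.90, adjusted p = 0.00667), Ppic (1.64, adjusted p = 9.96e-05) and Krt4 (1.49, adjusted p = 0.0183) also had positive values. Krt5 (-1.91, adjusted p = 0.0191), Lcn2 (-1.74, adjusted p = 0.00418) and Lmod1 (-1.69, adjusted p = 0.0144) had negative ones. Where a group is at background level, as control basal cells are for Scrg1, the gap is the measured one. None of the 17 hormone-sensing genes was among the 11, and Tbx3 came closest (-1.87, adjusted p = 0.0553).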

How the results depend on the processing

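The count of called genes (2368) lay between 1790, without replicate 2 of both groups, and 2494, with quantile normalization, over 14 alternatives. It was 1947 to 2172 when single arrays were left out. The count of hormone-sensing genes called (13 of 17) lay between 11 and 15, and 0 were higher under any alternative. With the replicate number as a block the counts were 2409 and 13; of the named genes the block changed the call of Stat5b. Every sample's deviation correlated best with that of its own number, a hint from the data and not from the design. Of 13 hormone-sensing genes called, 10 stayed called under all 14 alternatives. Wnt4, Tnfsf11 and Spdef did not, the last with the 6 arrays fitted alone (adjusted p = 0.0529). Of 89 named genes called, 78 stayed called under all 14; the other 11 were these 3, Stat5b, Lgr5, Wap, Ltf, Krt8, Krt18, Col1a2 and Cspg4. No named gene that was called changed direction under any of the alternatives. Array values have no detection calls, so a level near that of olfactory receptor genes bounds expression from above and does not show its absence.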
